A study of Mus musculus with 34 samples.

Results

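Liver RNA for the genes that make cholesterol, and for the genes that switch this synthesis on and off through the transcription factor SREBP2, was compared across mice with and without the nuclear receptor PPARα, with and without its drug ligand fenofibrate. The set was a list of 27 genes, namely 19 enzymes of the pathway, 4 genes of SREBP2 control (Srebf2, Scap, Insig1 and Insig2) and 4 genes of uptake, transport or other SREBP2 response (Stard4, Npc1l1, Rdh11 and Mylip). Members were found by gene name among the non-control probes of the arrays, and all 27 had a probe, 41 probes in all. Of these genes 26 were bright enough to test, among 16089 genes tested in all. Npc1l1, which takes up cholesterol in the gut and bile duct, did not reach the brightness filter.

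Each of the 34 arrays carried liver RNA of a separate male C57Bl/6J mouse aged 14 weeks, gavaged daily for 10 days and killed at zeitgeber time 14 h, which is in the dark phase when mice feed. The 4 lines were wild type (WT), whole-body Ppara knockout (KO), the liver Ppara knockout (LKO) and the controls bred with it (LWT). Each line received fenofibrate at 100 mg per kg per day or the vehicle, 3% gum arabic, and all mice ate the chow Safe 04 freely. There were 4 WT, 3 KO, 4 LWT and 4 LKO mice on vehicle, and 4 WT, 5 KO, 5 LWT and 5 LKO mice on fenofibrate. Neither the deleted part of Ppara nor the promoter that drives deletion in LKO is named in the labels, and the liver as the site of deletion is known from the name of the line alone. Levels are log2 spot intensities minus the 75th percentile of the array, so 0 is the intensity of the probe at that percentile, and levels of different genes are not compared. A gene was called when its limma p, adjusted by Benjamini-Hochberg over all 16089 genes, was below 0.05, and errors of differences are standard errors (SE).

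Cholesterol is built from acetyl-CoA. The mevalonate arm makes isoprenoid units, the squalene arm joins and cyclizes them to lanosterol, and the sterol arm trims lanosterol to cholesterol. SREBP2, the product of Srebf2, is held in the endoplasmic reticulum by SCAP and the INSIG proteins when sterols are plentiful, and when sterols fall it is cut, enters the nucleus and raises transcription of almost the whole pathway. PPARα is the fasting-response receptor of hepatocytes, known above all for inducing fatty acid oxidation.

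As a view of the sequence from which these genes are read, RefSeq promoter windows (build GRCm38.p6, 250 bases before to 50 after each start) matched 23 of the 27 members, with 30 windows. Exact letters were searched on both strands. The NF-Y box CCAAT, whose factor works next to SREBP on sterol genes, lay in 70.0% of the members' windows and 37.4% of all 32851 windows. The GC box GGGCGG was in 73.3% of members' windows and 35.7% of all windows. The E-box CACGTG was in 23.3% and 7.15%. The strict sterol regulatory element TCACNCCAC was found in 3.3% of members' windows, a single window, that of Hmgcs1, and in 1.24% of all windows. The 250 bases before the start are shown for Hmgcs1, the synthesis gene that rose with the drug in both control lines, and for 3 members with other patterns: Hsd17b7, which was lower in LKO, Srebf2, which differed between the control lines, and Insig1, which was called in no comparison. They lie at chr13:119690101-119690350 (+ strand), chr1:169969206-169969455 (- strand), chr15:82147019-82147268 (+ strand) and chr5:28071162-28071411 (+ strand). Capitals mark the strict sterol regulatory element, TCACCCCAC at 137 bases before the Hmgcs1 start, and every CCAAT or its reverse complement ATTGG.
Hmgcs1: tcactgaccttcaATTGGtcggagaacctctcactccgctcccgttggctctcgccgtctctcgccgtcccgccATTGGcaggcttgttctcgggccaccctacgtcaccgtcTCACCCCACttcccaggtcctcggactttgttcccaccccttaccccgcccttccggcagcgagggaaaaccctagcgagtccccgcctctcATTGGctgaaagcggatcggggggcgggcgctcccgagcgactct
Hsd17b7: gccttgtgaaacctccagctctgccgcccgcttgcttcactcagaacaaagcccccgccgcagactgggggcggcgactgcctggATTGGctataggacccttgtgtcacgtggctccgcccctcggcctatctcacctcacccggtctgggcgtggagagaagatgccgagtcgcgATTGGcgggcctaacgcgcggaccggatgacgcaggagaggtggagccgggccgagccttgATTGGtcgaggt
Srebf2: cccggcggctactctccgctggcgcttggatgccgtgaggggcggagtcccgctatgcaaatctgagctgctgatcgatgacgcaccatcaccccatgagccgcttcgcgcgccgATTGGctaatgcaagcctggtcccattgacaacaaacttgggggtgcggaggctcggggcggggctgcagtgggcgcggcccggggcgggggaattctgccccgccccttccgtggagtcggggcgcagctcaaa
Insig1: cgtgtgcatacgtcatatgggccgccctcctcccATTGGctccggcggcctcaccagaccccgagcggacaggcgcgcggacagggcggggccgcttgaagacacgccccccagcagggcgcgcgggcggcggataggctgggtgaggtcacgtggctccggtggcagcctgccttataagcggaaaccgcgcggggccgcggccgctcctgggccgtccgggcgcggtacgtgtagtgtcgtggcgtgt
The 4 windows differ in the number of CCAAT boxes, with 3 in the printed bases of Hmgcs1 and of Hsd17b7 and 1 in those of Srebf2 and of Insig1. A match is a description of letters and was not tested as a binding site.

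The arrays were of similar quality. Between 50.6% and 63.2% of probes were well above background on each array, and arrays of the same group correlated at 0.979 to 0.994. The Ppara probe was lower by 1.68 ± 0.17 log2 in KO than in WT and by 0.91 ± 0.16 in LKO than in LWT on vehicle, in the direction of the labels, and no mouse of a knockout overlapped with its control line. Whether this probe lies in the deleted part is not known here. Of 9 textbook PPARα targets 8 rose with fenofibrate in WT and 7 in LWT, and none was called in KO or LKO. All 8 hepatocyte markers were above background in every group. In whole liver, fewer cells of a type and less RNA per cell cannot be told apart.

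Fenofibrate raised 9 of the 26 members in WT and 1 in LWT, and no member was called in either knockout. In WT 9 rose and 1 fell, where 9.99% of all genes were called higher and 11.3% lower, 21.3% in all. The groups did not overlap for 11 members, against 26.9% of all genes. The median change of the members was 0.52 log2, and that of all genes was -0.0027. In LWT 1 member rose, Hmgcs1, and 1 fell, Stard4, against 9.95% of all genes called higher and 7.81% lower, 17.8% in all, with a members' median of 0.19. The LWT groups did not overlap for 6 members, against 18.6% of all genes. These counts moved with the fit: with slide as a block 18 members were called in WT and 5 in LWT. In LWT 6 were called with only its own 2 groups in the fit and 8 with replicate number as a block. For these and the other alternative fits the share of all genes called is not given. Whether a shift is particular to the members therefore cannot be read from such counts. No member was called in LKO, where 0% of all genes were called (927 had an unadjusted limma p under 0.05), nor in KO, where 0.0124% of all genes were called (1903 had an unadjusted limma p under 0.05). No member separated treated from vehicle mice in either knockout, against 3.26% of all genes in LKO and 3.57% in KO. The members' medians were -0.09 in LKO and -0.26 in KO, and 19 of 26 members were lower with the drug in KO. The drug's effect in WT minus that in KO was above zero and called for 9 members, against 5.59% of all genes called above zero and 5.36% below, 11% in all, the largest for Hmgcs1 at 2.38 ± 0.51 (adjusted p = 0.002). The replicate number was taken to pair the vehicle mice of these lines but not their treated mice. With it as a block 1 of the 9 was called, Hsd17b7 (adjusted p = 0.032), and Hmgcs1 had an adjusted p of 0.068. With only these 4 groups in the fit 3 were called, and with slide as a block 14. Without KO fenofibrate mouse 2 or WT fenofibrate mouse 4 the count was 5. Without KO vehicle mouse 1 the calls of Cyp51, Fdps, Idi1, Lss and Rdh11 were lost, with adjusted p from 0.074 to 0.168. The drug's effect in LWT minus that in LKO was called for Hmgcs1 alone, at 1.83 ± 0.47 (adjusted p = 0.016), with 6.69% of all genes called. Its effect in WT minus that in LWT was called for no member and for 0% of all genes by limma, while 683 genes had an unadjusted p under 0.05.

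**Figure D1:**
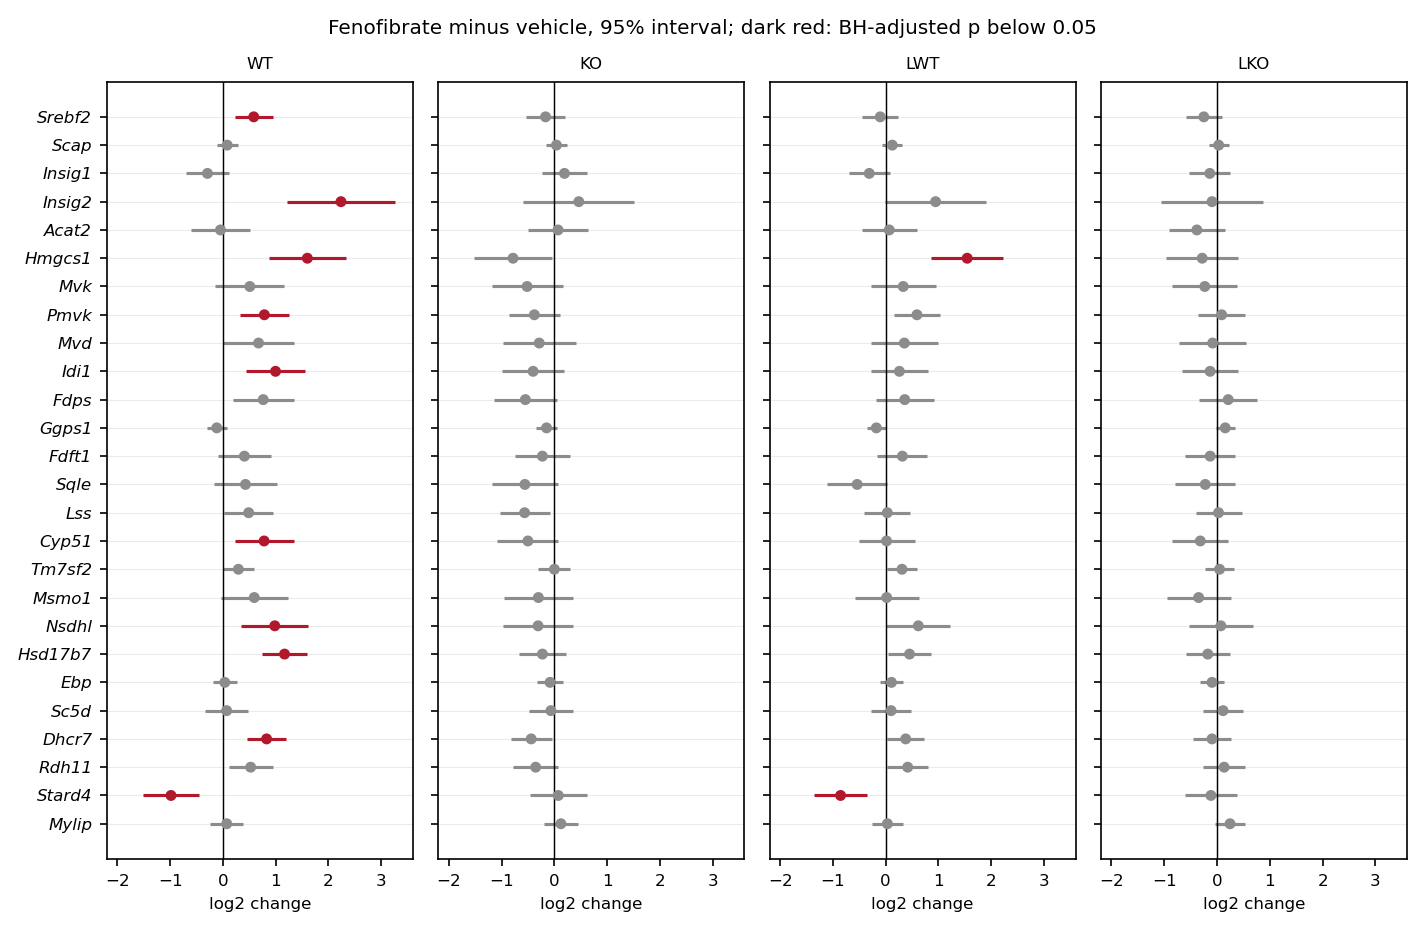
Log2 change with fenofibrate (fenofibrate minus vehicle) of the 26 tested members in each of the 4 lines; points are fitted changes, bars 95% intervals, and dark red marks an adjusted limma p below 0.05. In WT 10 members are marked and in LWT Hmgcs1 and Stard4, while no member is marked in KO or LKO.

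The WT vehicle group, the reference of that comparison, was itself low for many members. Among the 8 groups, WT vehicle had the lowest mean for 13 of 26 members, 11 of them synthesis enzymes. KO vehicle had the highest mean for 12 members, 11 of them enzymes. That mean is of 3 mice, of which mouse 1 had the highest level of 18 of 19 enzymes. How often these groups are lowest or highest over all genes was not counted. The drug comparison in WT and the comparison of KO with WT on vehicle rest on the same 4 WT vehicle mice, and their values are given side by side. For Hmgcs1 the difference from WT vehicle was 1.60 ± 0.35 with fenofibrate and 1.06 ± 0.38 in KO. For Dhcr7, which catalyses the last reduction to cholesterol from 7-dehydrocholesterol, it was 0.83 ± 0.18 and 1.16 ± 0.20. For Idi1, which isomerizes isopentenyl diphosphate, it was 1.00 ± 0.28 and 1.16 ± 0.30. Hsd17b7, a 3-ketosteroid reductase of the sterol arm, differed with fenofibrate at 1.17 ± 0.21 but by 0.20 ± 0.23 in KO, which was not called.

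Whole-body knockout on vehicle moved the most members. In KO against WT 14 members were higher and 2 lower of 26, with 13.9% of all genes called higher and 16.1% lower, 29.9% in all. The members' median was 0.68 log2 and that of all genes -0.027. The groups did not overlap for 13 members, 11 higher and 2 lower, against 27.3% of all genes. In LKO against LWT on vehicle only Hsd17b7 was called, lower, with 1.81% of all genes called higher and 4.27% lower, 6.08% in all. There the members' median was 0.08, and the groups did not overlap for 2 members, against 13.6% of all genes. On fenofibrate 2 members were higher and 4 lower in KO than in WT, with 21.2% of all genes called higher and 21.9% lower, 43.1% in all, and the groups did not overlap for 6 members, against 34.5% of all genes. In LKO against LWT on fenofibrate 3 members were higher and 7 lower, with 18.2% of all genes called higher and 18.1% lower, 36.4% in all, and 6 members did not overlap, against 29.1% of all genes. The count of 16 in KO against WT on vehicle fell to 11 without KO vehicle mouse 1, and to 10 in a fit that blocks on replicate number. No label states that same-numbered mice are pairs, and the number was taken to pair them here from shared deviations over all genes. The 6 calls lost under this pairing were those of Dhcr7, Ggps1, Hmgcs1, Nsdhl, Pmvk and Rdh11, with adjusted p from 0.052 to 0.13. The count was 9 when only these 7 arrays entered the fit.

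**Figure D2:**
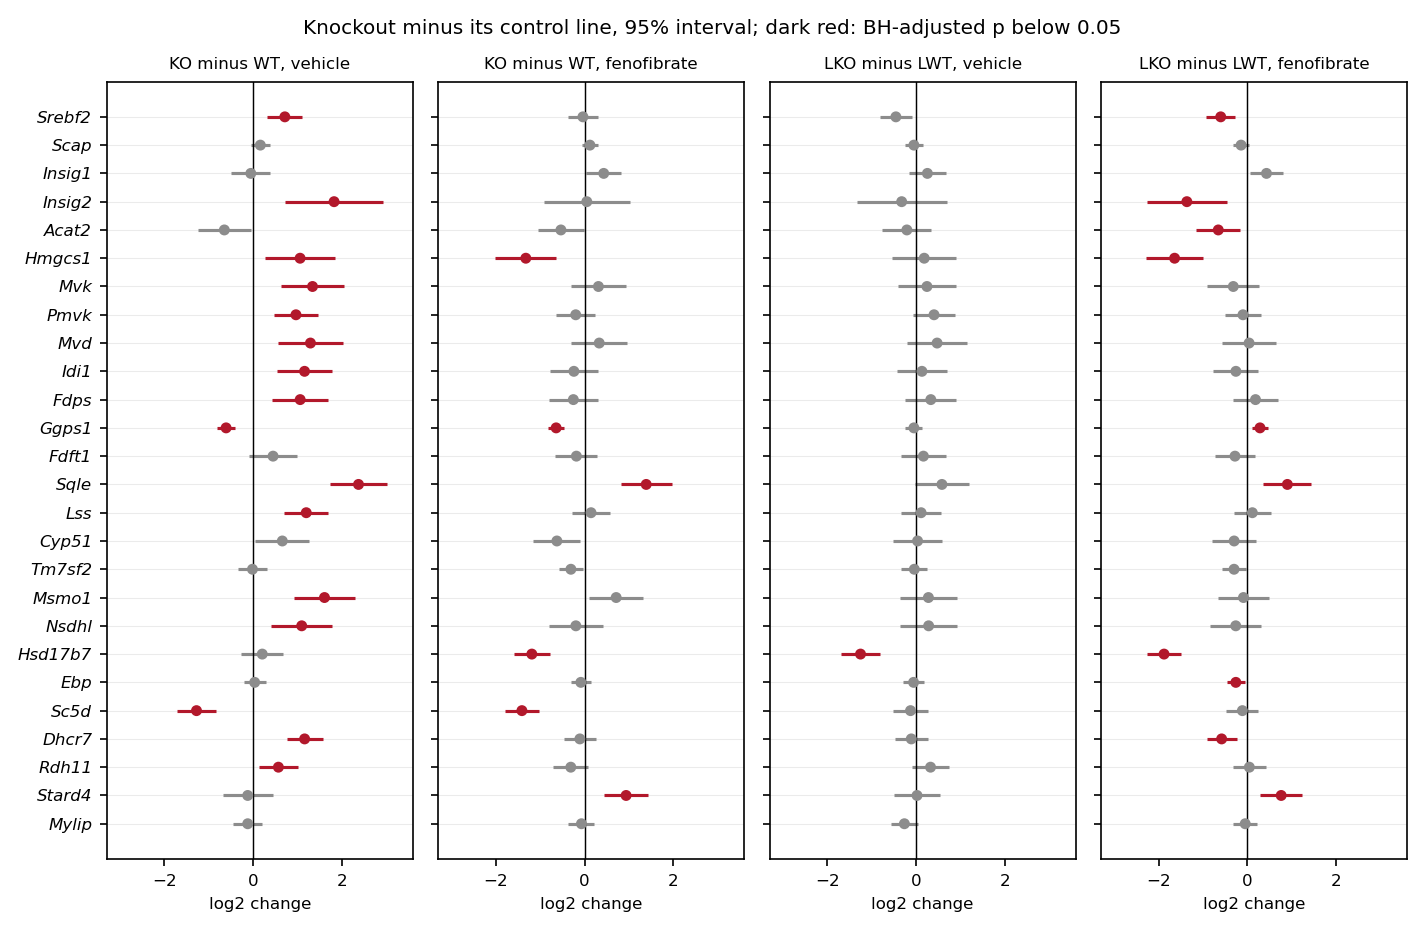
Log2 difference of each knockout from its control line for the 26 tested members, on vehicle and on fenofibrate; points are fitted differences, bars 95% intervals, and dark red marks an adjusted limma p below 0.05. In KO minus WT on vehicle 16 members are marked, and in LKO minus LWT on vehicle Hsd17b7 alone.

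A test added after the data had been seen compared both knockout effects directly. On vehicle, KO minus WT exceeded LKO minus LWT for 5 members, with 3.88% of all genes called above zero and 4.39% below, 8.27% in all. These were Sqle (1.79 ± 0.43, adjusted p = 0.0081), Hsd17b7 (1.45 ± 0.31, adjusted p = 0.0027), Dhcr7 (1.26 ± 0.27, adjusted p = 0.0026), Srebf2 (1.17 ± 0.26, adjusted p = 0.0042) and Lss (1.08 ± 0.33, adjusted p = 0.039). The same difference was below zero for Sc5d at -1.16 ± 0.29 and for Ggps1 at -0.57 ± 0.14. On fenofibrate only those last genes were called, Sc5d at -1.30 ± 0.26 and Ggps1 at -0.93 ± 0.12, with 12.2% of all genes called (5.97% above zero and 6.22% below). Of the second probes, that of Srebf2 gave 0.62 on vehicle (adjusted p = 0.071), and 2 other Hsd17b7 probes gave 1.27 (adjusted p = 0.014) and 0.55 (adjusted p = 0.35). A second Ggps1 probe gave -0.49 (adjusted p = 0.018) and another -0.19 (adjusted p = 0.63). On fenofibrate these Ggps1 probes gave -0.73 (adjusted p = 5.8e-05) and -0.47 (adjusted p = 0.058), the latter not called. Paired by replicate number, the Ggps1 difference on vehicle had an adjusted p of 0.063. The call of Lss was lost in 9 of the 34 fits without 1 mouse, all 9 without a vehicle mouse. The highest adjusted p, 0.105, came without KO vehicle mouse 1. Without KO vehicle mouse 3 the adjusted p of Sc5d on vehicle was 0.056. Each of these differences of effects also holds the gap between the control lines. On vehicle LWT exceeded WT by 1.09 for Sqle, 0.84 for Srebf2 and 0.71 for Hsd17b7, of which only Srebf2 was called. For Ggps1 LWT differed from WT by -0.02. The part of the control lines in these differences was not tested.

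Among the regulators, Srebf2, which encodes SREBP2, was at -0.22, -0.03, 0.05 and 0.23 in the WT vehicle mice and at 0.71, 0.58, 0.37 and 0.69 with fenofibrate. The KO mice on vehicle stood at 0.73, 0.51 and 0.91, and those on fenofibrate at 0.66, 0.04, 1.01, 0.46 and 0.59. All 4 WT vehicle mice were thus below every treated WT mouse and every KO vehicle mouse. The rise with fenofibrate in WT was 0.58 ± 0.18 (adjusted p = 0.018) and the difference of KO from WT on vehicle 0.71 ± 0.19 (adjusted p = 0.0057). Levels of Srebf2 in LWT were 0.27, 1.06, 1.01 and 1.05 on vehicle and 0.62, 0.53, 0.72, 0.93 and 0.94 with fenofibrate. In LKO they were 0.18, 0.45, 0.46 and 0.49 on vehicle and -0.18, -0.08, 0.48, 0.38 and 0.15 with fenofibrate. With the drug every LKO mouse was below every LWT mouse (-0.60 ± 0.16, adjusted p = 0.0036). The call in WT was lost without WT vehicle mouse 1 (0.51, adjusted p = 0.069) and without WT fenofibrate mouse 1 (0.54, adjusted p = 0.057). It was also lost without slide 1, which held WT vehicle mouse 1. In LWT the drug's change in Srebf2 was -0.10 ± 0.17 on the main probe and 0.31 on its second probe, neither called.

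Insig2, whose protein retains SCAP and SREBP2 in the endoplasmic reticulum, had the largest change with fenofibrate in WT of all members. Its levels in WT were 3.94, 4.60, 5.18 and 5.71 on vehicle and 7.18, 7.88, 6.31 and 7.00 with the drug, a 4.71-fold rise (2.24 ± 0.50, adjusted p = 0.0014) with no overlap. In LWT they were 5.92, 6.69, 7.04 and 7.05 on vehicle and 7.30, 7.42, 7.71, 8.05 and 7.63 with the drug. These groups did not overlap either, but the change of 0.95 ± 0.47 was not called (adjusted p = 0.18). In LKO the levels of Insig2 were 6.12, 6.30, 6.19 and 6.81 on vehicle and 5.54, 6.18, 5.96, 6.81 and 6.80 with the drug, and every treated LKO mouse was below every treated LWT mouse (-1.36 ± 0.44, adjusted p = 0.016). That call had an adjusted p of 0.051 without LKO fenofibrate mouse 1.

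In KO the level of Insig2 varied more between mice than in any other line. It was 5.40, 6.40 and 8.24 on vehicle and 7.38, 5.63, 6.85, 8.45 and 7.41 with fenofibrate. The difference of KO from WT on vehicle was 1.82 ± 0.54 (adjusted p = 0.011), and without KO vehicle mouse 3 it was 1.04 (adjusted p = 0.16). Insig2 also had the largest spread within groups of all 26 members, an SD of 0.73 log2.

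Insig1, the other INSIG gene and itself a classical SREBP target, was called in none of the comparisons. It was lower with fenofibrate in all 5 treated LWT mice, at 1.38, 1.23, 0.90, 1.40 and 1.33, than in the vehicle mice at 1.47, 1.62, 1.67 and 1.46, but the change of -0.31 ± 0.19 was not called. Scap, the escort protein, was not called in any comparison either, and its SD within groups was 0.13.

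**Figure D3:**
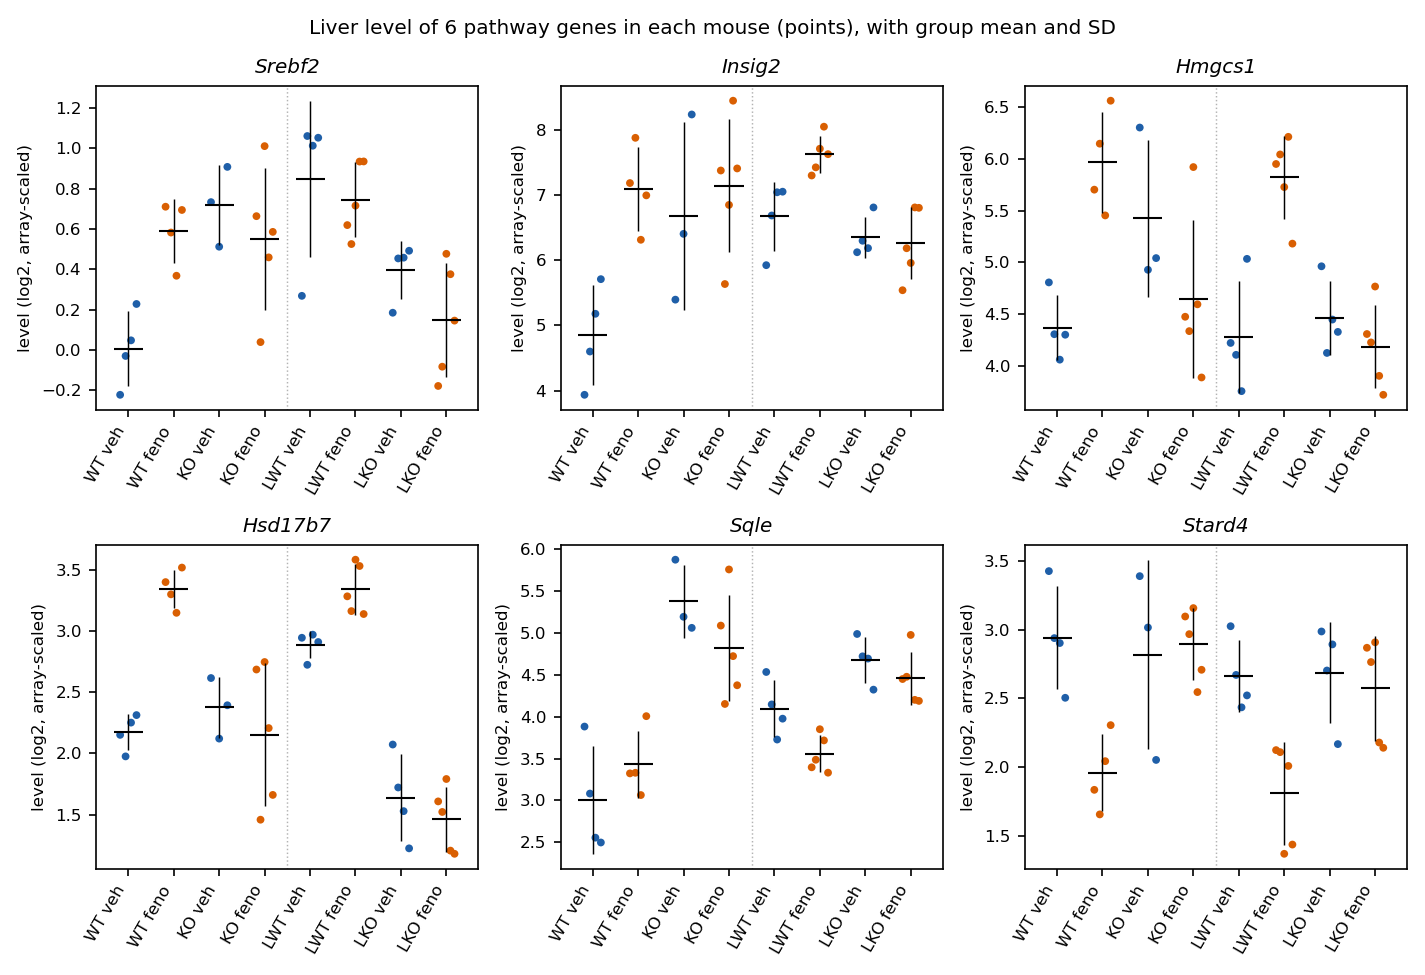
Level of 6 members in every mouse (log2 intensity minus the 75th percentile of the array), with vehicle in blue and fenofibrate in orange; horizontal lines are group means and vertical lines SD over 3 to 5 mice. WT vehicle mice are the lowest group for Srebf2, Insig2 and Sqle, and Stard4 is lowest in the treated WT and LWT mice.

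Of the mevalonate arm, Hmgcs1, the cytosolic HMG-CoA synthase, was the enzyme with the largest rise in WT. Its levels were 4.81, 4.31, 4.06 and 4.30 on vehicle and 5.70, 6.15, 5.45 and 6.56 with fenofibrate, a 3.03-fold rise without overlap (1.60 ± 0.35, adjusted p = 0.0014). In LWT Hmgcs1 went from 4.22, 4.11, 3.76 and 5.03 to 5.95, 6.04, 5.73, 6.21 and 5.18, a 2.92-fold rise, again without overlap (1.54 ± 0.34, adjusted p = 0.0014). In LKO it was 4.96, 4.13, 4.45 and 4.33 on vehicle and 4.31, 4.23, 4.77, 3.90 and 3.72 with the drug. Every treated LKO mouse was therefore below every treated LWT mouse (-1.64 ± 0.32, adjusted p = 0.00013). KO mice had Hmgcs1 levels of 6.30, 4.93 and 5.04 on vehicle and 4.47, 4.34, 5.92, 4.60 and 3.89 with the drug. The rises in WT and LWT and the difference of LKO from LWT on fenofibrate were called under every alternative tried and without any single mouse. The vehicle difference of KO from WT was 1.06 ± 0.38 (adjusted p = 0.036), and 0.62 (adjusted p = 0.26) without KO vehicle mouse 1. That call was lost in 4 of the 34 fits without 1 mouse, all 4 without a mouse of the groups compared.

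The next enzymes of the mevalonate arm were Pmvk, phosphomevalonate kinase, and Idi1. Pmvk was at 5.42, 5.27, 4.71 and 4.77 in WT on vehicle and at 5.51, 5.64, 5.88 and 6.28 with fenofibrate (0.79 ± 0.23, adjusted p = 0.013), with no overlap. Idi1 was at 4.60, 3.62, 3.77 and 3.91 and then at 4.81, 4.57, 5.01 and 5.52 (1.00 ± 0.28, adjusted p = 0.0095), where WT vehicle mouse 1 exceeded the lowest treated mouse. The call of Pmvk was lost without WT fenofibrate mouse 4 (adjusted p = 0.061) and without WT vehicle mouse 3 (adjusted p = 0.051). Mvk, Mvd and Fdps, which make mevalonate phosphate, isopentenyl diphosphate and farnesyl diphosphate, had changes of 0.51, 0.67 and 0.76 in WT and were not called.

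In KO on vehicle the same arm was high. Mvk, at 3.69, 2.80, 2.59 and 2.30 in WT, was at 5.10, 3.69 and 3.75 in KO (1.34 ± 0.34, adjusted p = 0.0039), where KO mouse 2 lay just above WT mouse 1. Mvd was 1.29 ± 0.35 higher (adjusted p = 0.0065), Idi1 1.16 ± 0.30 (adjusted p = 0.004), Fdps 1.06 ± 0.31 (adjusted p = 0.0094) and Pmvk 0.96 ± 0.24 (adjusted p = 0.0035). Without KO vehicle mouse 1 the calls of Mvk, Mvd and Fdps were lost, with adjusted p of 0.057, 0.063 and 0.10. Acat2, the cytosolic thiolase that feeds the pathway, had a difference of -0.65 ± 0.29 in KO on vehicle that was not called. It was called lower in LKO than in LWT on fenofibrate (-0.65 ± 0.24, adjusted p = 0.034), and lost that call in 7 of the 34 fits without 1 mouse. All 7 left out a fenofibrate mouse of LKO or LWT. The highest adjusted p of these fits, 0.096, came without LWT fenofibrate mouse 1.

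Ggps1, which makes geranylgeranyl diphosphate on a branch away from sterols, was low in KO on both treatments. It was at 0.89, 0.86, 0.80 and 0.81 in WT on vehicle against 0.00, 0.15 and 0.53 in KO, and at 0.74, 0.65, 0.73 and 0.76 in WT on fenofibrate against 0.20, -0.01, 0.11, 0.03 and 0.07 in KO. No KO mouse reached the lowest WT mouse on either treatment. The differences were -0.61 ± 0.10 (adjusted p = 4.3e-05) and -0.64 ± 0.09 (adjusted p = 1e-06). Ggps1 was not lower in LKO: it differed by -0.05 ± 0.09 on vehicle, which was not called, and was 0.29 ± 0.08 higher on fenofibrate. A second Ggps1 probe gave -0.48 (adjusted p = 4.0e-04) and another -0.35 (adjusted p = 0.051) in KO against WT on vehicle, and that other probe gave 0.10 for LKO against LWT on fenofibrate, not called. With fenofibrate the main probe gave -0.12 in WT and -0.18 in LWT, neither called, while the second gave -0.26 (adjusted p = 0.043) and -0.34 (adjusted p = 0.0059).

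Of the squalene arm, Sqle, squalene epoxidase, had the largest knockout difference. WT vehicle mice had levels of 3.88, 3.08, 2.55 and 2.50, and KO vehicle mice 5.88, 5.19 and 5.06, a 5.18-fold difference (2.37 ± 0.32, adjusted p = 1.6e-06). On fenofibrate Sqle was at 3.32, 3.33, 3.06 and 4.01 in WT and at 5.09, 4.15, 5.76, 4.72 and 4.38 in KO, so that all KO mice were above all WT mice (1.39 ± 0.28, adjusted p = 0.00017). LWT mice had 4.53, 4.15, 3.73 and 3.98 on vehicle and 3.40, 3.49, 3.85, 3.72 and 3.33 with the drug. LKO mice had 4.99, 4.72, 4.69 and 4.32 on vehicle and 4.45, 4.48, 4.98, 4.20 and 4.19 with the drug. With fenofibrate every LKO mouse exceeded every LWT mouse (0.90 ± 0.26, adjusted p = 0.0076), while on vehicle the difference of 0.59 ± 0.29 was not called. The drug itself gave Sqle changes of 0.43 in WT, -0.54 in LWT, -0.22 in LKO and -0.56 in KO, none of them called.

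Lss, which cyclizes squalene epoxide to lanosterol, was at 1.21, 0.66, 0.74 and 0.37 in WT and 2.44, 1.76 and 1.62 in KO on vehicle (1.20 ± 0.24, adjusted p = 0.00041). Fdft1, squalene synthase, was called in no comparison, with differences of 0.41 for fenofibrate in WT and 0.45 for KO against WT on vehicle. On the path from lanosterol, Msmo1, the sterol C4 methyl oxidase, was at 5.40, 4.73, 4.32 and 3.72 in WT and 6.68, 6.00 and 5.76 in KO on vehicle, a 3.05-fold difference (1.61 ± 0.34, adjusted p = 0.00059). Neither Lss nor Msmo1 was called for fenofibrate in WT.

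Cyp51, the lanosterol demethylase, and Nsdhl, which acts after it, rose with fenofibrate in WT. Cyp51 was at 0.50, 0.13, 0.02 and 0.08 on vehicle and 0.88, 0.67, 0.91 and 1.40 with the drug (0.78 ± 0.27, adjusted p = 0.04). Nsdhl was at 2.53, 2.42, 1.64 and 1.63 and then at 2.93, 2.60, 3.05 and 3.56 (0.98 ± 0.31, adjusted p = 0.023). Neither pair of groups overlapped. The drug's effect on Nsdhl in WT minus KO was 1.29 on the main probe (adjusted p = 0.061) and 1.66 on a second probe (adjusted p = 0.022). The call of Cyp51 for fenofibrate in WT was lost in 6 of the 34 fits without 1 mouse, all 6 without a WT mouse. It was also lost without the filter on brightness. That of Nsdhl was lost in 3 of the 34, all 3 without a WT mouse. The highest adjusted p of these fits, 0.136 for Cyp51 and 0.089 for Nsdhl, came without WT fenofibrate mouse 4. In KO on vehicle the Nsdhl difference of 1.09 ± 0.34 lost its call in 2 of the 34, with the highest adjusted p, 0.14, without KO vehicle mouse 1.

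Hsd17b7 was the member called lower in LKO on both treatments. It rose with fenofibrate in WT from 2.15, 1.98, 2.25 and 2.31 to 3.40, 3.30, 3.15 and 3.52 (1.17 ± 0.21, adjusted p = 0.00016). LWT mice were at 2.94, 2.72, 2.97 and 2.91 on vehicle and at 3.28, 3.16, 3.58, 3.53 and 3.14 with the drug, without overlap, but the change of 0.45 ± 0.20 was not called. LKO mice were at 2.07, 1.72, 1.53 and 1.22 on vehicle and 1.61, 1.52, 1.79, 1.21 and 1.18 with the drug, below every LWT mouse of the same treatment. The difference of LKO from LWT was -1.25 ± 0.21 on vehicle (adjusted p = 0.00016) and -1.88 ± 0.19 on fenofibrate (adjusted p = 3.7e-09). In KO, Hsd17b7 was at 2.61, 2.12 and 2.39 on vehicle and at 2.68, 1.46, 2.75, 2.21 and 1.66 with the drug, below every treated WT mouse (-1.19 ± 0.20, adjusted p = 1.8e-05). These Hsd17b7 calls held under every alternative and without any single mouse, although the dimmest of its 3 probes gave 0.58 for fenofibrate in WT (adjusted p = 0.056) and 0.31 for the drug's effect in WT minus KO (adjusted p = 0.60), which was 1.39 ± 0.30 on the main probe. In KO against WT on vehicle the dimmer probes gave -0.04 and -0.53, and none of the 3 was called.

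Dhcr7 was at 1.88, 1.80, 1.53 and 1.78 in WT on vehicle and 2.46, 2.41, 2.45 and 2.97 with fenofibrate (0.83 ± 0.18, adjusted p = 0.0014), without overlap. In KO on vehicle it was at 3.51, 2.42 and 2.78, all above WT (1.16 ± 0.20, adjusted p = 5.7e-05). In LKO with fenofibrate it was 0.58 ± 0.16 log2 below LWT (adjusted p = 0.0061 for a difference of -0.58). Ebp, a sterol isomerase, was called only in LKO against LWT on fenofibrate (-0.26 ± 0.10, adjusted p = 0.045). It lost the call in 8 of the 34 fits without 1 mouse, with the highest adjusted p, 0.147, without LKO fenofibrate mouse 4. Apart from the fit without WT fenofibrate mouse 1, these left out a mouse of the groups compared. Tm7sf2, a sterol reductase, was called in no comparison.

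Sc5d, the lathosterol desaturase, was called lower in KO on both treatments. It was at 6.06, 5.82, 5.56 and 5.64 in WT and 5.08, 4.36 and 4.04 in KO on vehicle, and at 5.56, 5.78, 5.89 and 6.14 in WT and 4.69, 4.52, 4.60, 4.07 and 4.27 in KO with fenofibrate. No KO mouse overlapped with WT on either treatment. The differences were -1.28 ± 0.21 (adjusted p = 4.0e-05) and -1.41 ± 0.19 (adjusted p = 3.9e-07). In LKO the differences from LWT were -0.12 ± 0.20 and -0.11 ± 0.18 and were not called, and the changes of Sc5d with fenofibrate, from -0.06 to 0.11 in the 4 lines, were not called.

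Stard4, which carries sterols between membranes and is a known SREBP2 target, was the only member called lower with fenofibrate, in WT and in LWT. WT mice had Stard4 levels of 3.43, 2.94, 2.90 and 2.50 on vehicle and 1.83, 1.66, 2.04 and 2.31 with the drug (-0.98 ± 0.26, adjusted p = 0.0057). LWT mice had 3.03, 2.67, 2.44 and 2.52 on vehicle and 2.12, 2.11, 1.37, 2.01 and 1.44 with the drug (-0.85 ± 0.24, adjusted p = 0.013). Treated and vehicle mice did not overlap in either line. LKO mice had 2.99, 2.70, 2.89 and 2.17 on vehicle and 2.87, 2.77, 2.91, 2.18 and 2.14 with the drug, and KO mice 3.39, 3.02 and 2.05 and then 3.10, 2.97, 3.16, 2.55 and 2.71, with no called change. On fenofibrate Stard4 was 0.94 ± 0.24 higher in KO than in WT (adjusted p = 0.0023) and 0.76 ± 0.23 higher in LKO than in LWT (adjusted p = 0.009). The difference of the drug's effect between WT and KO, -1.06 ± 0.37, missed the threshold on this probe (adjusted p = 0.061) and passed it on a second Stard4 probe (-1.19, adjusted p = 0.013). Between LWT and LKO it was -0.74 ± 0.34 on the main probe (adjusted p = 0.22) and -0.97 on the second (adjusted p = 0.044). On vehicle KO differed from WT by -0.12 ± 0.28 on the main probe, which was not called, and by -0.68 on the second probe (adjusted p = 0.028). The fall in LWT had an adjusted p of 0.055 without LWT vehicle mouse 1.

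Rdh11, a retinal reductase that responds to SREBPs, was 0.57 ± 0.22 higher in KO than in WT on vehicle (adjusted p = 0.049). That call was lost when any of 24 of the 34 mice was left out, with the highest adjusted p, 0.37, without KO vehicle mouse 1. Mylip, a ubiquitin ligase under control of the sterol receptor LXR that degrades lipoprotein receptors, was called in no comparison.

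Both Sqle and Srebf2 lie on chromosome 15, where Ppara is also found. The Srebf2 probe starts 3.6 Mb and the Sqle probe 26.5 Mb from the Ppara probe (mm9). LWT and WT are both controls, and only Srebf2 of the 26 members was called between them on vehicle (0.84 ± 0.18 higher in LWT, adjusted p = 0.013), with 0.472% of all genes called higher and 0.441% lower, 0.914% in all. The groups did not overlap for 5 members, against 7.91% of all genes. On chromosome 15 the called share was 5.79% of 656 genes, within 10 Mb of Ppara 5.24% of 286 genes, and on the other chromosomes 0.703%. Sqle was 1.09 ± 0.29 higher in LWT than in WT (adjusted p = 0.074) and Insig2, on chromosome 1, 1.82 ± 0.50 higher (adjusted p = 0.076), and neither was called. On fenofibrate no member was called between LWT and WT, Srebf2 differing by 0.16 ± 0.17 and Sqle by 0.13 ± 0.28, with 0.528% of all genes called (1578 had an unadjusted limma p under 0.05). There the called share was 5.95% on chromosome 15, 4.9% within 10 Mb of Ppara and 0.293% on the other chromosomes. The Srebf2 call rested on the brightest probe, since its second probe gave 0.46 (adjusted p = 0.14). It was also lost in the fit paired by replicate number (adjusted p = 0.079), with only the vehicle arrays of these lines (adjusted p = 0.15), and without slide 1. Leaving out 1 mouse lost it in 4 of the 34 fits, all 4 without a vehicle mouse of these lines. The highest adjusted p, 0.073, came without LWT vehicle mouse 3. In KO against WT on vehicle 31.7% of chromosome 15 genes, 36.4% of the 286 genes within 10 Mb of Ppara and 29.9% of genes elsewhere were called. Whether sequence carried along with the modified Ppara alleles moves the values of Srebf2 or Sqle was not tested.

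In some groups a single mouse was highest or lowest for most enzymes. In WT on vehicle, mouse 1 had the highest level of 18 of 19 enzymes, in KO on vehicle mouse 1 had the highest of 18, and in WT on fenofibrate mouse 4 had the highest of all 19. In LKO on vehicle mouse 4 was lowest for 17 enzymes. Other groups were less uniform: the mouse with the highest enzyme median was highest for 7 of 19 enzymes in LWT on fenofibrate, and the mouse with the lowest was lowest for 6 in KO on fenofibrate and for 8 in WT and in LWT on vehicle. The mouse with the highest enzymes in its group also had the highest Stard4 in 7 of 8 groups, and the mouse with the lowest enzymes had the lowest Stard4 in 4 of 8. The mouse with the lowest enzymes had the highest Insig2 in 6 of 8 groups, and the mouse with the highest enzymes had the lowest Insig2 in 4 of 8. The mouse with the highest enzymes had the highest Insig1 in 5 of 8 groups and the highest Srebf2 in 2 of 8. How often genes outside the list match in this way was not counted, and groups of 3 to 5 mice give some matches by chance. WT vehicle mouse 1 and KO vehicle mouse 1 were both hybridized on slide 1, whose other array was KO fenofibrate mouse 1, and the part of the slide in their high levels was not tested. Without slide 1, 13 members were called between KO and WT on vehicle in place of 16. Slide 1 was the only slide with vehicle arrays of both lines. Without it slide and genotype cannot be told apart in this comparison, so the count is no check on the slide. On slide 1 alone, with 1 KO and 1 WT vehicle array, the 16 members had the sign of the whole fit, and on slide 3, the only slide with both treatments of WT, with 2 treated and 1 vehicle array, so did the 10 members called for fenofibrate. These arrays were part of the fit that made the calls, so the shared sign is no separate check.

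**Figure D4:**
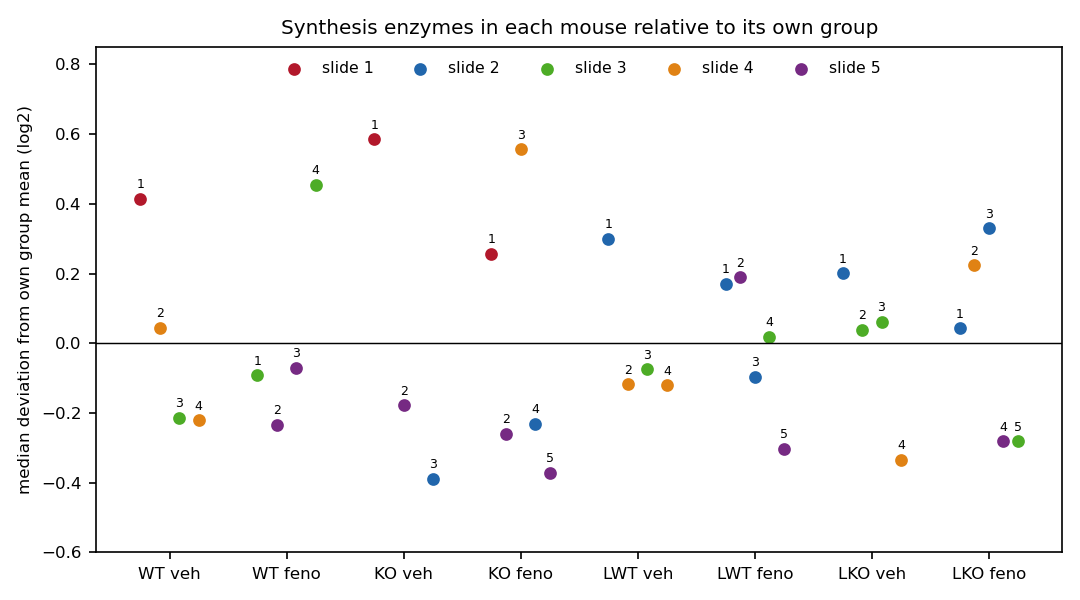
Median deviation of 19 synthesis enzymes from the mean of the mouse's own group (log2), for each of the 34 mice, numbered by replicate and coloured by slide. WT vehicle mouse 1 and KO vehicle mouse 1 on slide 1, WT fenofibrate mouse 4 and KO fenofibrate mouse 3 stand above the rest of their groups, at 0.41, 0.58, 0.46 and 0.56.

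Marker lists of the cell types in liver also held called genes. Of all genes 21.3% were called for fenofibrate in WT and 17.8% in LWT. For KO against WT the share of all genes was 29.9% on vehicle and 43.1% on fenofibrate. Of 8 hepatocyte markers 3 were lower with fenofibrate in WT and 2 in LWT, and 3 were higher in KO than in WT on vehicle, 4 on fenofibrate. Their mean level lay between 9.25 and 9.39 in WT vehicle mice, between 9.03 and 9.19 in WT fenofibrate mice, between 9.39 and 9.53 in KO vehicle mice and between 9.46 and 9.58 in KO fenofibrate mice. Of 7 endothelial cell markers 2 were higher and 2 lower in KO than in WT on vehicle. Of 8 lymphocyte and neutrophil markers 3 were higher and 1 lower there. Of 8 Kupffer cell markers 3 were higher in KO than in WT on vehicle and none lower, all 8 differences were positive, and their median was 0.70 log2. Their mean level was 3.43, 4.93 and 2.92 in the KO vehicle mice and between 2.65 and 3.23 in the WT vehicle mice. Without KO vehicle mouse 2, the mouse at 4.93, the count of called members was 16, 14 higher and 2 lower, and Rdh11 was not among them (adjusted p = 0.057).

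Of the adipocyte markers Adipoq and Lep did not pass the brightness filter, and of the 2 tested Cfd was called, 5.32 ± 0.94 higher with fenofibrate in WT and 2.91 ± 0.89 in LWT. Cfd was at -3.12 ± 0.94 in LKO against LWT on vehicle, and at -5.92 ± 0.89 in KO against WT and -6.39 ± 0.84 in LKO against LWT on fenofibrate. Of 5 cholangiocyte markers 4 were lower in KO than in WT on fenofibrate, with a median of -1.36, and 1 on vehicle. The shares of all genes called lower were 21.9% and 16.1%. Of 3 red blood cell markers 2 were higher in KO than in WT on fenofibrate, with a median of 1.42, where 21.2% of all genes were called higher. With fenofibrate 1 was lower in WT and in LWT, against 11.3% and 7.81% of all genes. The part of any of these cell types in the members' differences was not tested.

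Lists of neighbouring pathways were counted in the same way, against 21.3% of all genes called for fenofibrate in WT and 29.9% for KO against WT on vehicle. Of 11 genes of acetyl-CoA and NADPH supply and fatty acid synthesis, 1 rose and 1 fell with fenofibrate in WT: Pgd, an NADPH-making enzyme of the pentose phosphate pathway, rose by 0.48 ± 0.14, and Acly, which makes cytosolic acetyl-CoA, fell by 1.09 on the log2 scale. In KO against WT on vehicle none of the 11 was higher and 7 were lower, with a median of -1.12. The lower genes included Elovl6 at -2.23 ± 0.43, Acaca at -1.45 ± 0.30 and Fasn at -1.24 ± 0.38, an elongase, acetyl-CoA carboxylase and fatty acid synthase. Srebf1, the gene of the SREBP form that drives fatty acid synthesis, was 2.23 log2 below WT in KO (-2.23 ± 0.34, adjusted p = 9.2e-06), while Srebf2 was 0.71 ± 0.19 higher.

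Of 13 genes of SREBP processing and sterol sensing none was called for fenofibrate in WT (median 0.04), and 3 rose in LWT. There 9.95% of all genes were called higher and 7.81% lower. Of 20 genes of cholesterol transport, esterification and the LXR receptors, 2 rose and 1 fell with fenofibrate in WT. These were Nceh1, a cholesteryl ester hydrolase (1.36 ± 0.21), Lpcat3, a phospholipid-remodelling enzyme (0.80 ± 0.11), and Stard3, an endosomal sterol carrier (-0.35 ± 0.08). In KO on vehicle 2 of the 20 were higher and 6 lower. Soat1, which esterifies cholesterol, was 2.02 ± 0.52 higher, and Abcg5 and Abcg8, the partners that export sterols into bile, were at -0.75 ± 0.15 and -0.73 ± 0.17. Of 12 genes of the isoprenoid branches, Coq2 of ubiquinone synthesis rose with fenofibrate in WT (0.31 ± 0.08). Dhdds of dolichol synthesis fell by 0.36 on the log2 scale, and the other 10 were not called. With fenofibrate in LWT 4 of the 12 rose. So did 4 of the 20 transport genes, with 1 lower, and 2 of the 11 genes of acetyl-CoA and NADPH supply and fatty acid synthesis.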

How the data were processed

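The deposited scanner files hold linear spot intensities of 1-colour (Cy3) Agilent arrays whose probes are placed on mm9. Per the file headers they were extracted by Feature Extraction, version 10.10.1.1. A table of log2 values by the authors was also used, and the submitters' processing notes name limma. Every column of it had a median of 7.63, its normalization is otherwise not given in the sources used here, and it served as an alternative only. On the 3 arrays of slide 1 its values tracked the log2 median spot intensity less closely (r about 0.993) than on the 31 other arrays (at least 0.9996).

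Control spots were left out (59305 spots, 55681 probes remained), spots marked as outliers were set to missing (89 values among the genes tested, left out of the fit), and spots of a probe were averaged. Levels were log2 processed signals minus each array's own 75th percentile. A probe was kept if some group had it well above background on all its arrays (31053, of which 21517 had a gene name), and the brightest probe stood for its gene. No spot was saturated. Groups came from the titles. The means of all 8 groups entered a limma fit (version 3.58.1, R 4.3.3) without covariates, two-sided, with Benjamini-Hochberg adjustment over 16089 genes and a threshold of 0.05. The script was tested on simulated data. The number of arrays limits the precision.

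The members and the gene lists were chosen with earlier results of these data known. All 27 members were to be named, with Ppara and, of each neighbouring list, up to 4 genes called with fenofibrate in WT. The other list genes given, Elovl6, Acaca, Fasn, Srebf1, Soat1, Abcg5 and Abcg8, and the marker Cfd were picked after their values were seen. The comparisons of both knockouts' effects were added after the data were seen. Same-numbered mice deviated together over all genes on vehicle (r from 0.123 to 0.403 for KO and WT, 0.118 to 0.29 for LKO and LWT, 0.104 to 0.234 for LWT and WT). There the number was taken to pair them, although no label states pairs. Of the 3 KO and WT pairs 1 shared a slide, the pair with r of 0.403. In the other comparisons the number was not taken to pair mice, though r was 0.04 to 0.234 for LKO and LWT on fenofibrate. Alternatives were the normalization, background correction, filter, probe choice, slide or replicate number as a block, fewer groups in the fit, and leaving out slide 1 or each mouse. Leaving out a mouse outside the groups compared cannot change the estimated difference, only its error and adjusted p. Most of the 34 fits without 1 mouse are therefore a weak check on any single call.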

Additional observations from a re-analysis of the deposited data

Results flagged for a closer look

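Among 182 sets of 4 or 5 mice (a member in a group), 8 held a value that stood apart from the rest, and chance gives about 5% of such sets. High values were Dhcr7 in WT fenofibrate mouse 4 (2.97), Insig1 in the same mouse (1.79), Ebp in WT vehicle mouse 1 (8.16) and Mvd in LKO fenofibrate mouse 3 (1.35). Low values were Mylip in LKO fenofibrate mouse 2 (1.26), Nsdhl in LKO vehicle mouse 4 (1.85), and Srebf2 in LKO vehicle mouse 1 (0.18) and LWT vehicle mouse 1 (0.27).

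The drug's effect differed between lines by a test of the difference. WT minus KO was 1.28 for Cyp51, 1.26 for Dhcr7, 1.31 for Fdps, 2.38 for Hmgcs1, 1.39 for Hsd17b7, 1.40 for Idi1, 1.05 for Lss, 1.16 for Pmvk and 0.88 for Rdh11. This count of 9 was 5 without KO fenofibrate mouse 2 and 5 without WT fenofibrate mouse 4. Without KO vehicle mouse 1 the calls of Cyp51, Fdps, Idi1, Lss and Rdh11 were lost. Their adjusted p were then 0.080, 0.119, 0.074, 0.103 and 0.168. The Rdh11 call was lost in 24 of the 34 fits without 1 mouse. Fdps, Lss and Rdh11 were not called for fenofibrate in WT. Of the 9 only Hmgcs1 and Hsd17b7 were called between KO and WT on fenofibrate. LWT minus LKO was 1.83 for Hmgcs1.

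The effect of whole-body knockout minus that of liver knockout, tested after the data were seen, was 1.26 for Dhcr7, -0.57 for Ggps1, 1.45 for Hsd17b7, 1.08 for Lss, -1.16 for Sc5d, 1.79 for Sqle and 1.17 for Srebf2 on vehicle, and -0.93 for Ggps1 and -1.30 for Sc5d on fenofibrate. Without KO fenofibrate mouse 2 the count on fenofibrate was 5 instead of 2. These differences of effects also hold the gap between the control lines LWT and WT.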

How the results depend on the processing

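Of the calls of single members, 65 in the main fit, none reversed under any alternative. Over all alternatives and left-out mice 2675 values kept their call and 185 lost it. Counts of called members that moved by more than 1.5 times are these. With slide as a block, 18 members were called for fenofibrate in WT (10 before), 5 in LWT (2 before), 3 for LWT against WT on vehicle (1 before), 14 for the drug's effect in WT minus KO (9 before) and 2 for LWT minus LKO (1 before). With only the groups compared in the fit, 6 were called for fenofibrate in LWT, 9 for KO against WT on vehicle (16 before) and 3 for WT minus KO. Without the filter on dim probes 5 were called for WT minus KO. Without slide 1, 10 were called for KO against WT on fenofibrate (6 before). The authors' value table gave 2 for LWT against WT on vehicle. The cause of these shifts was not tested. The shares of all genes called in these fits are not given, so the counts do not show whether a shift is particular to the members.

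With the replicate number as a block, 10 members were called for KO against WT on vehicle, where the numbers were taken to pair the mice. For the drug's effect, whose vehicle mice were taken as paired and treated mice were not, 1 was called for WT minus KO and 3 for LWT minus LKO. For fenofibrate in LWT, where mice share only a number, 8 were called.

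Leaving out each mouse in turn gave 7 to 12 called members for fenofibrate in WT, 2 to 3 in LWT, 0 in LKO and in KO. It gave 11 to 17 for KO against WT on vehicle and 6 to 10 on fenofibrate (10 without KO vehicle mouse 1), and 1 to 2 for LKO against LWT on vehicle (2 without LWT vehicle mouse 1) and 7 to 11 on fenofibrate. LWT against WT gave 0 to 2 on vehicle (0 without LWT vehicle mouse 2, 3 or 4) and 0 on fenofibrate. The drug's effect gave 5 to 13 for WT minus KO, 1 to 2 for LWT minus LKO (2 without LWT fenofibrate mouse 1) and 0 for WT minus LWT. Whole-body against liver knockout gave 6 to 8 on vehicle and 2 to 5 on fenofibrate. The KO vehicle group has 3 mice, and the number of mice limits every comparison.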
